A study of Homo sapiens with 8 samples.

Results

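FAM111A and FAM111B are 2 of the 15041 coding genes listed in any of 8 deposited count tables from single MDA-MB-231 cells, a human triple-negative breast cancer line. Both rows were taken by gene symbol, with their levels after irradiation in these data already known, so the irradiation differences below describe the pair and carry no test. The libraries form 4 groups of 2: ATM knockdown cells given 5 Gy of ionizing radiation and cultured for 4 h, untreated ATM knockdown cells, wild-type (WT) cells given the same dose and time, and untreated WT cells. Cells were picked singly by mouth pipette and their RNA was amplified by a modified form of Smart-seq2 and read from 3' mRNA libraries. How ATM was knocked down, and whether the knockdown cells are 1 clone, is not given in the sources used here. The knockdown libraries share one ending in their names and the WT libraries another, so genotype and any difference in handling cannot be told apart.

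Of 378 cells, 363 had at least 1000 detected genes and 5000 counts and were kept, and the 15 left out were all knockdown cells. The kept cells of a library summed to between 9321268 and 24256471 counts. Levels are counts per 1000000 of that sum (CPM), and 2 libraries stand behind each group. Nothing in the labels says that they came from separate cultures, so p-values measure the spread between libraries, which may be technical. ATM, the targeted kinase, was at 13.0 and 14.0 CPM in irradiated knockdown libraries and at 13.8 and 33.0 CPM in untreated knockdown libraries, against 28.0 and 33.2 CPM in irradiated WT and 57.9 and 31.1 CPM in untreated WT libraries. Untreated knockdown replicate 2 was thus level with WT, so directions by genotype go by the labels. As a mean of CPM per cell, ATM overlapped in untreated cells, at 56.5 and 46.3 in knockdown against 57.9 and 35.6 in WT libraries. An ATM count was found in 46.3% and 45.5% of untreated knockdown cells, against 87.5% and 85.4% of untreated WT cells. Neither knockdown difference passed edgeR's quasi-likelihood test (log2 -1.25, adjusted p = 0.109 when irradiated, and log2 -0.98, adjusted p = 0.157 when untreated). Markers of the line were present, with VIM at 1828 to 2944 CPM and CD44 at 418 to 892 CPM. PGR and CDH1 were at or near 0, and the leukocyte gene PTPRC was at most 1.80 CPM. Other markers listed as low or absent in this line were detected, with EPCAM at 15.5 to 61.3 CPM and ERBB2 at 8.06 to 25.5 CPM. The endothelial gene PECAM1 was at 0 to 32.1 CPM, highest in untreated WT replicate 2.

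FAM111A and FAM111B are related proteins with a trypsin-like serine protease domain. FAM111A binds PCNA, the sliding clamp of the replication fork, and helps forks pass proteins crosslinked to DNA. It also restricts the growth of some host-range mutants of polyomaviruses and poxviruses, and dominant mutations in it cause Kenny-Caffey syndrome. FAM111B is less studied, and its mutations cause a hereditary fibrosing poikiloderma.

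The genes lie side by side on chromosome 11. FAM111B (ENSG00000189057.10) spans 59107185 to 59127410 and FAM111A (ENSG00000166801.15) spans 59142748 to 59155039 in GENCODE 29 on GRCh38, both on the plus strand with 15.3 kb between them. Their annotated transcripts share 0 stretches of 31 bases, so reads of that length that match exactly cannot be shared between them. The first 268 bases of FAM111A overlap FAM111A-DT, a noncoding RNA on the other strand, and whether counting used the strand is not given in the sources used here. RefSeq promoter sequence (GRCh38.p14, 250 bases before to 50 after a start) was matched for FAM111A, with 2 annotated start sites. No promoter sequence was used for FAM111B. The stretches below are shown because they hold the letters of motifs known from replication, mitotic and interferon genes, the gene groups that the cell-by-cell results are set against. Capitals mark the motif letters.

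FAM111A E2F motif, chr11:59144786-59144815, plus strand: cacctgctccgTTTCCCGCccagctggagc
FAM111A cell cycle homology element, chr11:59144758-59144787, plus strand: aaaggcgggcgaTTCAAAcccctagcccca
FAM111A interferon-stimulated response element core, chr11:59142876-59142905, plus strand: actaggatgcTTTCGCTTTCgctctcgctt

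The E2F form TTTCCCGC, the kind of site through which E2F factors act on replication genes, began 65 bases before the downstream start and was found on either strand in 1.63% of 35116 RefSeq promoter windows. The other form searched, TTTGGCGC, had no match in either FAM111A window and matched 0.652% of all windows. The cell cycle homology element TTTGAA, known from promoters of G2/M genes, began 92 bases before the same start on the minus strand, and 15.2% of windows held it. The core, GAAA and GAAA with any 2 bases between them, matched on the minus strand 30 bases after the upstream start, and 3.57% of windows held it. CCAAT boxes, on overlapping letters of both strands, also lay in the downstream window, and 34.6% of windows held one. A match is a description of letters and shows no binding.

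FAM111B was higher in irradiated than in untreated libraries in both genotypes. Its level was 45.7 and 52.2 CPM in irradiated knockdown libraries, against 10.8 and 14.4 CPM in untreated knockdown libraries. In WT it was 43.2 and 64.1 CPM in irradiated libraries, against 10.8 and 14.1 CPM in untreated libraries. All 4 irradiated libraries therefore lay above all 4 untreated ones, and the genotypes overlapped within each treatment. The fitted log2 difference, irradiated minus untreated, was 1.97 (SE 0.34) in knockdown and 2.13 (SE 0.34) in WT cells. Group means were 48.9 ± 4.60 CPM in irradiated knockdown, 12.6 ± 2.54 CPM in untreated knockdown, 53.7 ± 14.8 CPM in irradiated WT and 12.4 ± 2.37 CPM in untreated WT (SD, n = 2 each). In order of mean, irradiated WT came highest, then irradiated knockdown, untreated knockdown and untreated WT, and neither the irradiated pair nor the untreated pair separated beyond its spread.

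**Figure D1:**
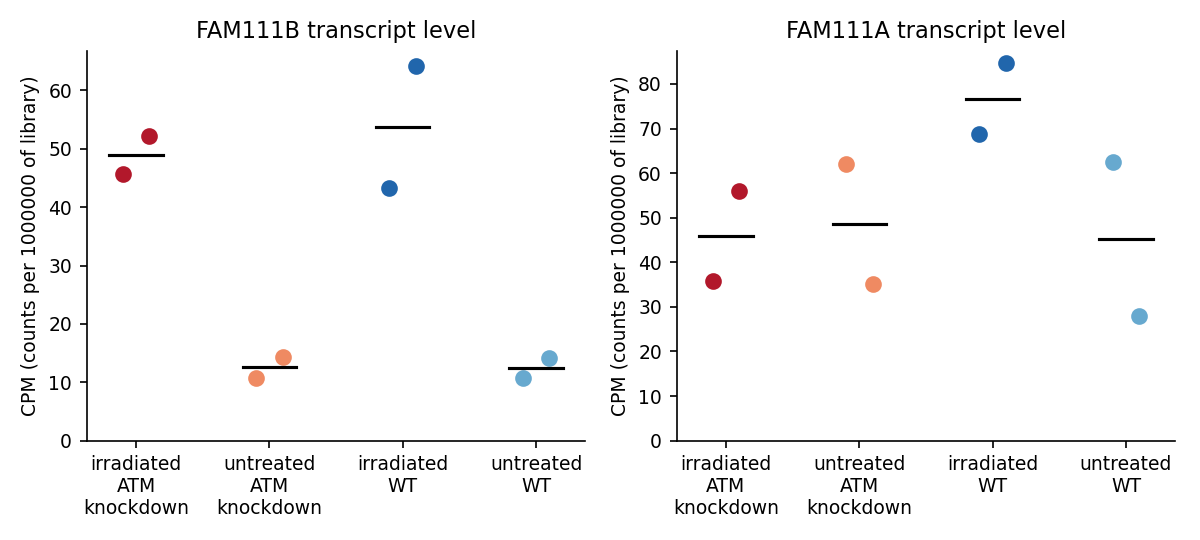
Transcript level of FAM111B (left) and FAM111A (right) in CPM, with 1 point per library and a bar at the mean of the 2 libraries of each group. FAM111B sits between 43.2 and 64.1 CPM in every irradiated library and between 10.8 and 14.4 CPM in every untreated one. FAM111A is highest in irradiated WT, at 68.8 and 84.6 CPM. Untreated WT replicate 1, at 62.5 CPM, and untreated knockdown replicate 1, at 62.1 CPM, lie just below.

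FAM111A was high in irradiated WT cells and spread widely elsewhere. It was at 35.8 and 55.9 CPM in irradiated knockdown libraries, against 62.1 and 35.2 CPM in untreated knockdown libraries, and these groups overlapped. In WT it was at 68.8 and 84.6 CPM in irradiated libraries, against 62.5 and 28.0 CPM in untreated libraries. In CPM of summed counts no other library reached irradiated WT, with untreated WT replicate 1 and untreated knockdown replicate 1 just below it. As a mean of CPM per cell, untreated knockdown replicate 1, at 77.1, lay above irradiated WT replicate 1, at 73.1. The log2 difference, irradiated minus untreated, was -0.08 (SE 0.37) in knockdown and 0.79 (SE 0.37) in WT cells. The WT value rested on the untreated libraries, since it was 1.45 without replicate 1 and 0.33 without replicate 2. Group means were 45.9 ± 14.2 CPM in irradiated knockdown, 48.7 ± 19.0 CPM in untreated knockdown, 76.7 ± 11.2 CPM in irradiated WT and 45.3 ± 24.4 CPM in untreated WT (SD, n = 2 each). Irradiated WT came first in order of mean, and the other groups did not separate from each other.

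Knockdown cells were compared with WT cells within each treatment, and these differences, which did not choose the genes, were tested over 12456 genes with edgeR's quasi-likelihood test. Neither gene passed. FAM111A was lower by log2 -0.81 in irradiated knockdown than in irradiated WT cells (95% interval -1.60 to -0.02, adjusted p = 0.256 by edgeR), and both knockdown libraries lay below both WT libraries. In untreated cells its difference was 0.06 (95% interval -0.73 to 0.84, adjusted p = 0.952). FAM111B differed by -0.20 in irradiated cells (95% interval -0.89 to 0.49, adjusted p = 0.808) and by -0.04 in untreated cells (95% interval -0.74 to 0.66, adjusted p = 0.963). The difference between the genotypes in the irradiation response was -0.86 for FAM111A (95% interval -1.98 to 0.25, adjusted p = 0.635) and -0.16 for FAM111B (95% interval -1.15 to 0.82, adjusted p = 0.958). For FAM111B these intervals leave room for a genotype effect of about 1 log2 unit in the response in either direction.

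Few cells carried much of each level. The top cell held 15.4% to 39.4% of a library's FAM111B counts and 12.4% to 34.1% of its FAM111A counts. To compare cells, each was thinned at random to 69000 counts, which 330 cells reached (33 to 46 per library) and 33 kept cells did not.

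At that depth FAM111B was detected, with at least 1 count, in 53.5% of cells (23 of 43, exact 95% interval 37.7% to 68.8%) and 65.0% (26 of 40, 48.3% to 79.4%) of the irradiated knockdown libraries. In untreated knockdown libraries the shares were 24.2% (8 of 33, 11.1% to 42.3%) and 20% (8 of 40, 9.05% to 35.6%). In irradiated WT libraries they were 41.0% (16 of 39, 25.6% to 57.9%) and 43.5% (20 of 46, 28.9% to 58.9%), and in untreated WT libraries 18.6% (8 of 43, 8.39% to 33.4%) and 23.9% (11 of 46, 12.6% to 38.8%). More cells held the transcript in every irradiated library than in any untreated one. These intervals cover the sampling of cells only.

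The count in the cells that held FAM111B separated by treatment in WT but overlapped in knockdown, and this difference between the genotypes was not tested. The mean in positive cells was 5.65 and 4.65 counts in irradiated knockdown libraries, against 4.00 and 4.88 in untreated knockdown libraries, and these overlapped. In WT it was 7.56 and 8.55 counts in irradiated libraries, against 3.13 and 3.82 in untreated libraries, with no overlap. Among irradiated cells, knockdown libraries thus had the larger shares of positive cells and the smaller counts in them, and the mean over all cells was 3.02 and 3.03 counts in knockdown, against 3.10 and 3.72 counts in WT. Over both treatments the share of FAM111B-positive cells was 8.93 percentage points higher in knockdown, at 40.7%, than in WT, at 31.8%. A two-sided exact permutation test of genotype within treatment gave p = 0.111 over 36 arrangements. Its smallest possible p, 0.0556, lies above the threshold used here, so the test could not pass and decides nothing about this difference. The difference was 0.667 points when a positive cell needed 2 counts, 1.35 points at a depth of 30000 counts and 1.05 points without thinning.

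FAM111A was detected in 53.5% (23 of 43, exact 95% interval 37.7% to 68.8%) and 52.5% (21 of 40, 36.1% to 68.5%) of cells in irradiated knockdown libraries. Untreated knockdown libraries had 51.5% (17 of 33, 33.5% to 69.2%) and 42.5% (17 of 40, 27.0% to 59.1%). In irradiated WT libraries the shares were 64.1% (25 of 39, 47.2% to 78.8%) and 69.6% (32 of 46, 54.2% to 82.3%), against 44.2% (19 of 43, 29.1% to 60.1%) and 45.7% (21 of 46, 30.9% to 61.0%) in untreated WT libraries. Irradiated WT had the largest shares, as it had the highest CPM. The mean in positive cells was 5.96 and 7.05 counts in irradiated knockdown, 8.12 and 4.94 in untreated knockdown, 8.40 and 7.59 in irradiated WT and 6.32 and 5.33 in untreated WT libraries. The share over both treatments was 5.88 points lower in knockdown, at 50%, than in WT, at 55.9%. The same exact permutation test gave p = 0.222, and as it could not pass for any data it decides nothing here.

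**Figure D2:**
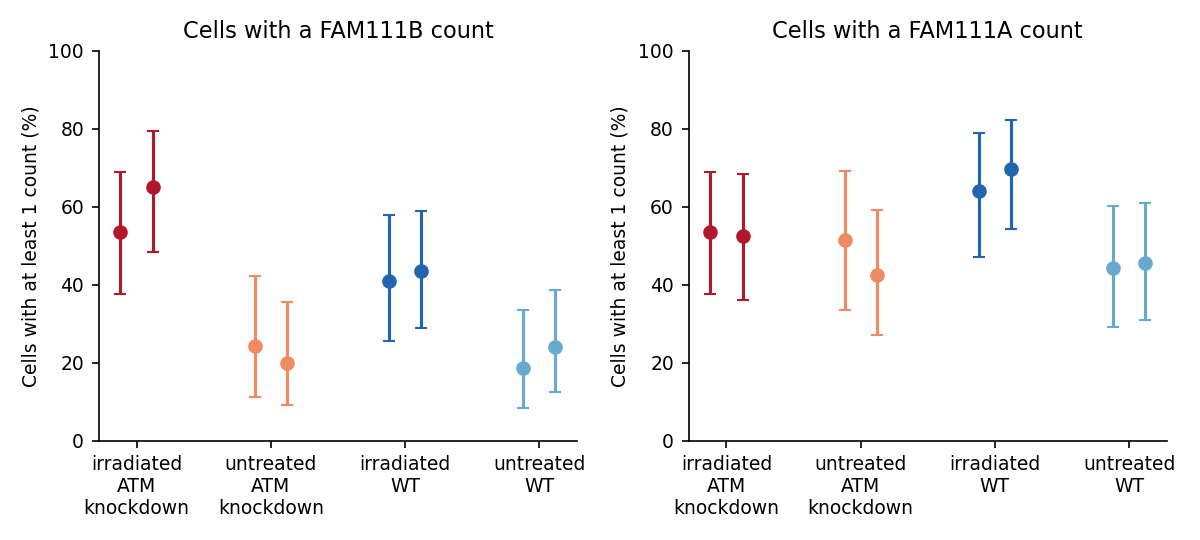
Share of cells with at least 1 count of FAM111B (left) or FAM111A (right) after thinning to 69000 counts per cell, in percent, with 1 point per library and exact 95% binomial intervals over its cells. FAM111B-positive cells made up 41.0% to 65.0% of irradiated libraries and 18.6% to 24.2% of untreated ones, and FAM111A-positive cells were most frequent in irradiated WT, at 64.1% and 69.6%.

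Cell by cell, both genes followed genes of DNA replication. A replication score was summed over 61 listed genes as log2(count + 1) at the thinned depth, and covers origin licensing, helicase, clamp, polymerase and nucleotide synthesis genes. Within libraries, Spearman's rho with this score averaged 0.55 for FAM111B (SD 0.15 over 8 libraries, 0.35 to 0.82) and 0.52 for FAM111A (SD 0.16, 0.13 to 0.66). The lowest FAM111A value came from untreated knockdown replicate 1, which has the fewest cells, 33, and without that library the mean was 0.58. With a score of 40 G2/M and mitosis genes the genes parted: rho averaged 0.23 for FAM111B (-0.06 to 0.40) and 0.45 for FAM111A (0.07 to 0.64), and FAM111A was the higher in 7 of 8 libraries. Cells of a library share its depth and handling, and both genes also followed the number of genes detected at the thinned depth, with a mean rho of 0.18 for FAM111B and 0.29 for FAM111A. The replication score itself had a mean rho of 0.45 with genes detected, and the part of that measure in these correlations was not tested.

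Other scores gave a similar split or none. A score of 24 genes that repair DNA-protein crosslinks and topoisomerase lesions, which shares the flap nuclease FEN1 with the replication list and TOP2A with the G2/M list, averaged a rho of 0.31 with FAM111B and 0.47 with FAM111A. Interferon-stimulated antiviral genes gave -0.03 for FAM111B and -0.04 for FAM111A. Targets of p53, a factor that is mutated in this line, gave 0.09 for FAM111B and 0.05 for FAM111A. FAM111A and FAM111B had a mean rho of 0.32 with each other, between -0.17 and 0.55 over libraries.

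**Figure D3:**
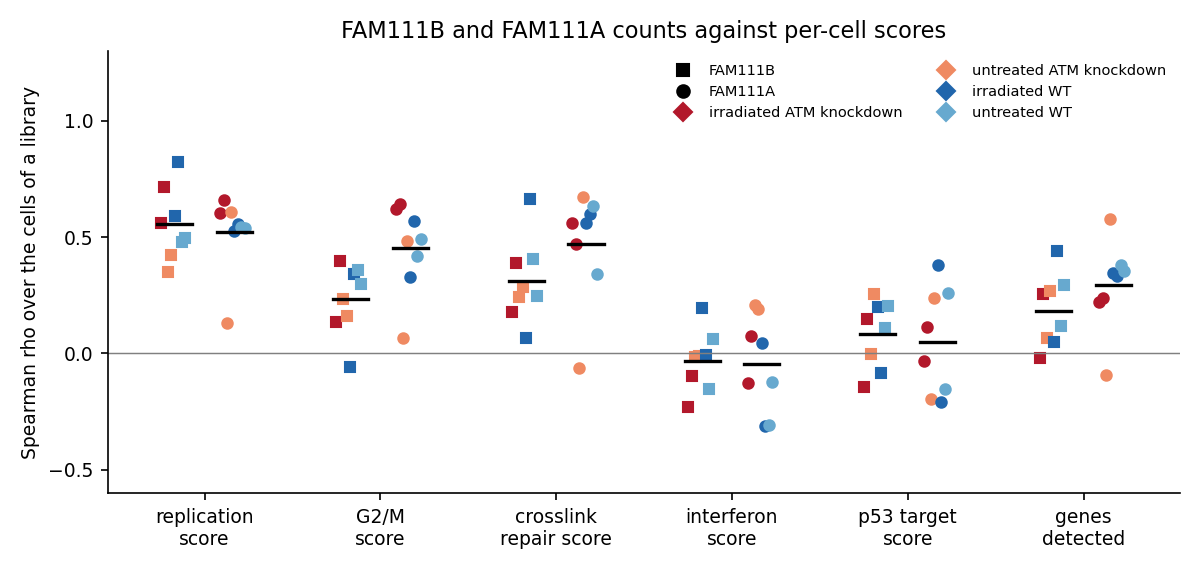
Spearman's rho over the thinned cells of each library between counts of FAM111B (squares) or FAM111A (circles) and per-cell gene scores or the number of genes detected, with colours for the groups and a bar at the mean of 8 libraries. Means with the replication score were 0.55 for FAM111B and 0.52 for FAM111A, and with the G2/M score 0.23 for FAM111B and 0.45 for FAM111A.

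The genes most alike to each one over cells, drawn from all genes, gave a like division. Among 6975 genes present in at least 20% of thinned cells of every library, the 10 with the highest mean rho to FAM111B were MCM3 (0.52), FEN1 (0.51), ATAD2 (0.48), MCM6 (0.47), RFC4 (0.45), CLSPN (0.45), MCM5 (0.44), PCNA (0.44), ASF1B (0.43) and MCM10 (0.42). MCM3, MCM5 and MCM6 are subunits of the replicative helicase, RFC4 loads the PCNA clamp, and 9 of the 10 were in the replication list. For FAM111A the 10 were RRM2 (0.54), CDCA5 (0.53), TYMS (0.50), HIST1H4C (0.50), ASF1B (0.49), HMGB2 (0.49), AURKB (0.49), CDC45 (0.48), PCNA (0.48) and CDK1 (0.48). These mix nucleotide synthesis enzymes (RRM2, TYMS) and a histone gene of S phase with the cohesin regulator CDCA5 and the mitotic kinases AURKB and CDK1. The median rho over all genes compared was 0.02 for FAM111B and 0.04 for FAM111A.

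Among the 100 genes most alike to FAM111B were 40 of the 48 replication genes compared and 1 of the 38 G2/M genes. Among the 100 most alike to FAM111A were 21 of the 48 and 21 of the 38, where 1.43% of all genes compared fall in such a list. The G2/M count for FAM111B was at most 4 with any library left out (without irradiated WT replicate 1), 3 without untreated knockdown replicate 2 and 2 without irradiated knockdown replicate 1. Of the 100, 49 genes were the same for both members. Within the replication list the loosest partners of FAM111B were CHTF18 (0.13), CCNE1 (0.15) and TIMELESS (0.16), and those of FAM111A were CCNE1 (-0.05), CDC25A (0.08) and GINS4 (0.12). CCNE1 and CDC25A act at entry into S phase. The large clamp loader subunit RFC1 was also loose, at 0.16 for FAM111B and 0.18 for FAM111A. The licensing factor CDT1 had a mean rho of 0.34 with FAM111B and 0.31 with FAM111A, and its partner CDC6 had 0.39 with FAM111B and 0.36 with FAM111A. MCM2 had 0.40 with FAM111B and 0.21 with FAM111A, and DTL, which directs destruction of CDT1, had 0.43 with FAM111B and 0.23 with FAM111A.

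When the 330 cells were split by replication score into 3 bins of 110, at 56.2 and 108, FAM111B was present in 8.18% of the low bin, 23.6% of the middle bin and 77.3% of the high bin. FAM111A was present in 23.6% of the low bin, 51.8% of the middle bin and 83.6% of the high bin. These bins pool the cells of 8 libraries and both treatments. In untreated knockdown replicate 1 FAM111A did not follow this order, at 57.1% of 14 low, 36.4% of 11 middle and 62.5% of 8 high cells. The score is a range without natural breaks, and 25 cells lay within 2 units of a limit between bins. In the pooled cells both genes were thus found mostly in the upper bins, and since a share of positive cells moves with abundance it is not compared between the genes. The high bin held 46.5% and 42.5% of irradiated knockdown cells, against 24.2% and 25.0% of untreated knockdown cells. In WT it held 43.6% and 47.8% of irradiated cells, against 14.0% and 21.7% of untreated cells.

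Within the high bin FAM111B still differed by treatment. Its mean count was 4.80 and 5.24 in irradiated knockdown libraries, against 3.00 and 3.00 in untreated knockdown libraries. In WT it was 6.65 and 7.77 in irradiated libraries, against 1.83 and 3.50 in untreated libraries. The irradiated libraries were higher in both genotypes, on 17 to 22 cells per irradiated library and 6 to 10 per untreated library. Median replication scores in the high bin were 137 and 145 in irradiated knockdown against 150 and 137 in untreated knockdown, and 152 and 157 in irradiated WT against 123 and 137 in untreated WT, so in WT the irradiated cells also scored higher within the bin. FAM111A showed no such separation in WT, with 9.24 and 8.41 counts in irradiated against 9.83 and 7.60 in untreated libraries, nor in knockdown, with 4.75 and 7.35 counts in irradiated against 3.50 and 5.70 in untreated libraries.

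The middle bin set the irradiated genotypes apart for FAM111B. It was present in 50% and 58.3% of middle-bin cells of irradiated knockdown libraries (14 and 12 cells), against 17.6% and 0% of those of irradiated WT libraries (17 and 14 cells, where 0 of 14, taken as 3 cells at most, allows a share of up to 21.4%). Median scores there were 87.3 and 84.9 in irradiated knockdown and 87.4 and 79.1 in irradiated WT cells. Untreated knockdown libraries had 18.2% and 0% (0 of 13 cells, up to 23.1% on the same limit), and untreated WT libraries 31.3% and 15.4%. The comparison was singled out after its values were seen and no test was made of it.

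**Figure D4:**
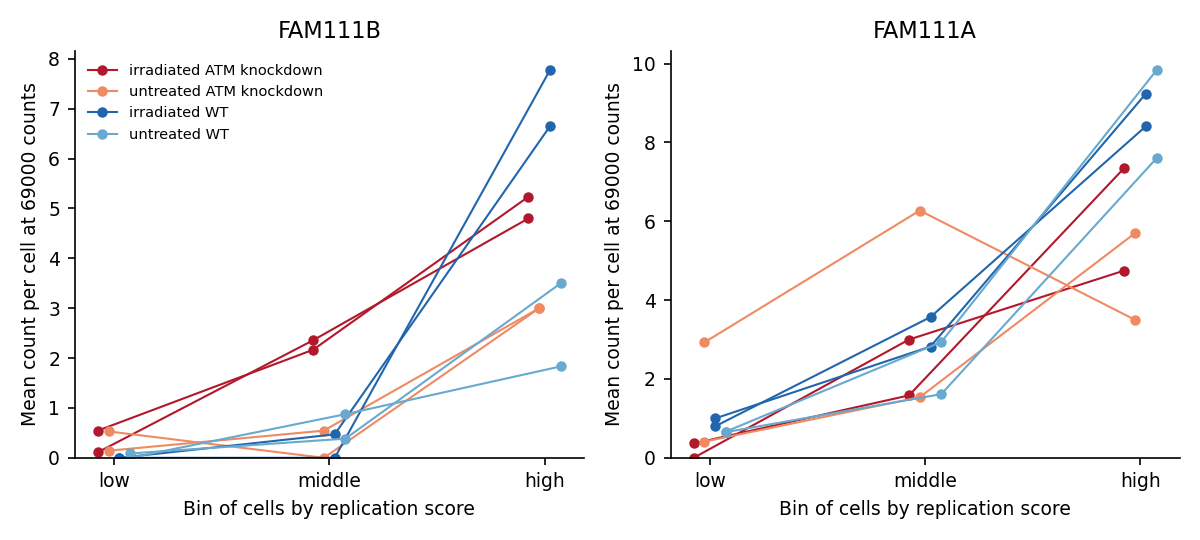
Mean count per cell at 69000 counts of FAM111B (left) and FAM111A (right) in the low, middle and high bin of cells by replication score, with 1 line per library coloured by group. In the high bin FAM111B averaged 4.80 to 7.77 counts in irradiated libraries and 1.83 to 3.50 counts in untreated ones, while the groups overlap for FAM111A.

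The 2 genes were found together in 83 of 330 cells, FAM111A alone in 92, FAM111B alone in 37 and neither in 118. FAM111A was present in a larger share of FAM111B-positive than FAM111B-negative cells in 7 of 8 libraries, for example in 90.0% against 53.8% in irradiated WT replicate 2. Untreated knockdown replicate 1 was the exception, with 37.5% against 56.0%, where 8 cells were FAM111B-positive.

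FAM111B also differed by treatment relative to the summed replication list. It gave 10.4 and 12.4 counts per 1000 counts of the list in irradiated knockdown libraries, against 2.98 and 3.88 in untreated knockdown libraries. In WT it gave 9.85 and 10.0 in irradiated libraries, against 3.70 and 5.02 in untreated libraries, so the ratio did not overlap between treatments in either genotype. FAM111A gave 8.19 and 13.2 in irradiated against 17.2 and 9.50 in untreated knockdown libraries, and 15.7 and 13.3 in irradiated against 21.5 and 9.97 in untreated WT libraries, and overlapped in both. These ratios come from the contrast for which the genes were chosen and are a description.

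In WT, 57 of the 61 tested replication genes were higher in irradiated than in untreated libraries and 17 passed edgeR's quasi-likelihood test as higher, where 0.907% of all 12456 genes did. Their median log2 difference was 0.98, beside -0.01 for all genes. The list was chosen with earlier results of these data known, so its count and median are a description. ORC1, the large subunit of the origin recognition complex, differed by 2.68 (SE 0.54, adjusted p = 0.0277) and CCNE2, a cyclin E gene, by 2.43 (SE 1.09, adjusted p = 0.332). ORC1 and CCNE2 were the 2 list genes above FAM111B's 2.13. CDT1 differed by 1.66 (SE 0.35, adjusted p = 0.0314), MCM4 by 1.53 (SE 0.29, adjusted p = 0.0211) and PCNA by 1.01 (SE 0.23, adjusted p = 0.0436), all higher after irradiation, and RFC1 by -0.14. The count of 17 was 1 without irradiated WT replicate 2, 11 without untreated WT replicate 1 and 1 when WT libraries were fitted alone. With the WT libraries fitted alone, 5 of all 11852 genes tested passed as higher. FAM111A's 0.79 was exceeded by 38 of the 61, and by 0 of the 40 G2/M genes, whose median was -0.04.

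In knockdown cells the log2 difference of FAM111B was above those of the whole replication list. This order is a description, since the irradiation levels of FAM111B were known when it was chosen. Its 95% interval, 1.25 to 2.69, held the value of the highest list gene. Of the 61 genes, 47 were higher in irradiated than in untreated libraries, with a median log2 difference of 0.24 beside 0.01 for all genes, and the highest was the fork protection gene TIPIN at 1.61 (SE 0.40, adjusted p = 0.145), below FAM111B's 1.97. None passed edgeR's test as higher, where 0.0321% of all genes did. By edgeR 10 of the 61 had an unadjusted p under 0.05, beside 1104 of all 12456 genes. DESeq2 called 4 higher, beside 66 of 12214 genes. CDT1 differed by 0.25, MCM4 by 0.41, PCNA by 0.16 and E2F1 by -0.01. FAM111A's -0.08 was exceeded by 50 of the 61. Of the 40 G2/M genes, 39 were lower in irradiated than in untreated knockdown libraries, with a median of -0.84, and 1 exceeded FAM111A. The 2 contrasts use different untreated libraries.

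**Figure D5:**
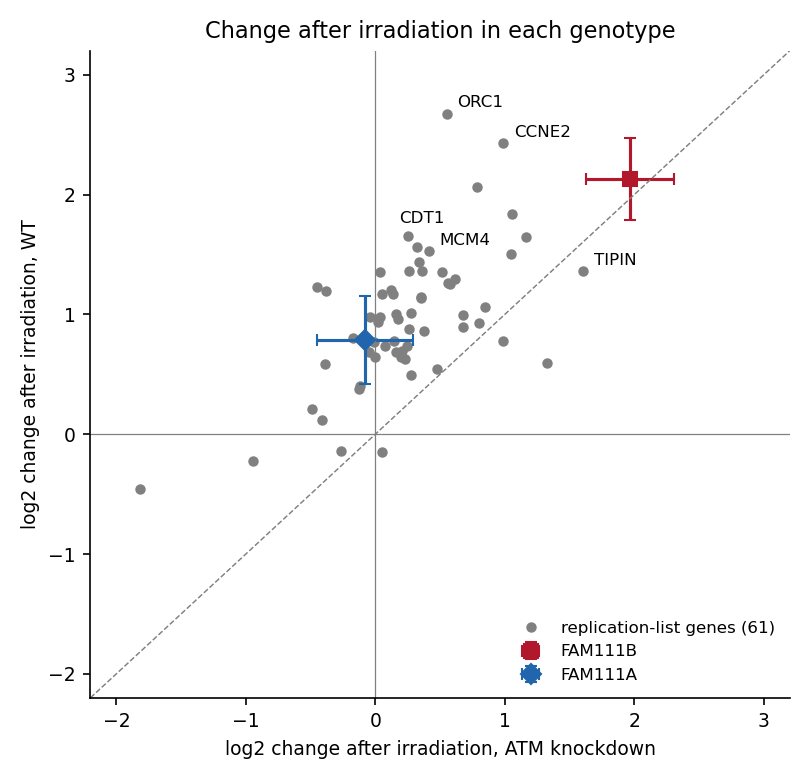
The log2 difference between irradiated and untreated libraries in ATM knockdown (horizontal axis) and WT cells (vertical axis) for 61 replication-list genes (grey) and for FAM111B and FAM111A with their standard errors, with equal differences along the dashed line. FAM111B lies at 1.97 in knockdown and 2.13 in WT, to the right of every list gene, and FAM111A at -0.08 and 0.79 lies within the cloud.

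Between irradiated knockdown and irradiated WT cells, where FAM111A differed by -0.81, 51 of 61 replication genes were lower and 3 passed the test as lower, where 2.92% of all genes did. Among them were the thymidylate synthase gene TYMS at -1.40 (SE 0.19, adjusted p = 0.000762) and the transcription factor E2F1 at -1.25 (SE 0.29, adjusted p = 0.0197). Of 40 G2/M genes, 39 were lower and 10 passed as lower, among them AURKB (-1.34) and CDK1 (-1.11), which are in the FAM111A neighbourhood above, and the list's median was -0.95, beside -0.00030 for all genes. MKI67 differed by -0.41 and CCNB1 by -0.84, and neither passed. The part of a shift in cell cycle in FAM111A's lower value was not tested. Of the 61 replication genes, 20 lay above FAM111B's -0.20 and 50 above FAM111A's -0.81 in this comparison.

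In untreated cells, 3 of 61 replication genes passed the same test in either direction, where 9.94% of all genes did. Among them were CLSPN (0.93) and MSH6 (1.48), both higher in knockdown than in WT. Of the 61, 43 were higher and 18 lower in untreated knockdown than in untreated WT cells, with a median of 0.36 beside -0.01 for all genes. ECT2 (-0.74) was the 1 of 40 G2/M genes that passed. In the response itself, knockdown minus WT, 57 of 61 replication genes had the lower value in knockdown, with a median of -0.72. This contrast subtracts the untreated genotype difference from the irradiated one. Of the list, 0 passed edgeR's test, where 0.185% of all genes did. By edgeR 18 of the 61 had an unadjusted p under 0.05, beside 1183 of all 12456 genes. DESeq2 called 3 lower, beside 57 of 11973 genes. FAM111B's -0.16 in that contrast lay below 7 of the list and FAM111A's -0.86 below 40.

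Other genes tied to the known roles of FAM111A were set beside it. SPRTN, a protease that also acts on DNA-protein crosslinks, was at 34.3 and 21.8 CPM in irradiated knockdown, 36.8 and 17.4 CPM in untreated knockdown, 29.6 and 23.5 CPM in irradiated WT and 33.2 and 25.5 CPM in untreated WT libraries, and it passed no test. Of the 24 crosslink repair genes, FEN1 (0.97, adjusted p = 0.043) was the 1 that passed as higher after irradiation in WT, where 0.907% of all genes did. Between irradiated knockdown and WT, 2 of the 24 passed in either direction, where 5.1% of all genes did, the topoisomerases TOP1 (1.11, higher) and TOP2A (-1.14, lower), and between untreated ones 1 of 24 passed, the unfoldase VCP (0.52, higher), where 9.94% of all genes did. Of 39 interferon-stimulated genes tested, 8 passed as lower in irradiated knockdown than in irradiated WT cells, where 2.92% of all genes did, among them IFIT1 (-4.89) and IRF1 (-2.0), and 8 in untreated cells, where 5.11% of all genes did, among them IFITM3 (-0.97) and IFIT1 (-2.66). IFI27 (1.13) was called higher in irradiated knockdown than in irradiated WT cells, as were 271 of all 12456 genes. Of 22 p53 targets, CDKN1A (1.40, adjusted p = 0.0109) and AEN (1.78, adjusted p = 0.0412) were the 2 that passed between untreated knockdown and untreated WT cells, both higher in knockdown, a share close to the 9.94% of all genes. After irradiation CDKN1A differed by -0.58 in knockdown and by 0.12 in WT cells, MDM2 differed by 0.10 in knockdown and by -0.48 in WT cells, and none of these passed.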

How the data were processed

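The authors' deposited tables hold whole-number counts per coding gene and cell. A gene that a table does not list was set to 0 there, and 10829 of 15041 genes stand in every table. Trimmomatic 0.36, HISAT2 2.1.0, HTSeq 0.9.1 and hg38 are named in the submitters' processing notes. Whether counts are reads or molecules is not given in the sources used here.

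Counts were summed over the kept cells of each library, which weights cells by their counts. After filterByExpr and TMM scaling, edgeR 4.0.16 fitted 4 groups in 1 quasi-likelihood model (4 residual degrees of freedom), with Benjamini-Hochberg adjustment over 12456 genes at 0.05. Printed CPM carry no TMM scaling. Cells were thinned to 69000 counts with 1 fixed random draw, and shares have Clopper-Pearson intervals, which cover the sampling of cells only. Where no cell was positive, the limit given is 3 cells of the total. Intervals of log2 differences rest on the spread between libraries. Replicate numbers follow accession order and only name libraries. Members, lists and tests were chosen with earlier results of these data known. Named genes are the 10 most alike to each member over cells, the closest and loosest of the replication list and a fixed set (CDT1, MCM4, MCM2, PCNA, RFC1, CCNE2, E2F1, CDC6, DTL, MKI67, CCNB1, CDKN1A, MDM2, SPRTN). ORC1, TIPIN and other list genes that passed a test were named after their values were seen. A replication-list gene that passed a test between genotypes is not reported here.

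Alternatives were DESeq2 1.42.0 (size factors, Wald test), unscaled counts, other gene filters, limma 3.58.1 on mean CPM per cell, the compared groups alone, other cell filters, another seed or depth, other limits for a positive cell, and each library left out. R 4.3.3, Python 3.11.15 and scipy 1.17.1 were used.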

Additional observations from a re-analysis of the deposited data

How the results depend on the processing

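Depth and library number limit these values: with 2 libraries per group, each interval of a genotype difference spans over 1 log2 unit, and measures per cell rest on 1 random thinning. The irradiation difference of FAM111B kept its direction under all alternatives run. In WT it was 2.09 to 2.46 (2.46 without cells above 2 times the median) and 1.83 to 2.37 with a library left out. In knockdown it was 1.49 to 1.97 (1.49 with limma on mean CPM per cell) and 1.78 to 2.16 with a library left out. FAM111A's in WT was 0.74 to 1.25, and 0.33 to 1.45 with a library left out. In knockdown it was -0.40 to -0.08, and -0.45 to 0.39 with a library left out.

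No alternative brought a log2 genotype difference of either gene past the threshold. With a library left out, the irradiated difference was -1.18 to -0.51 for FAM111A and -0.45 to 0.10 for FAM111B, positive for FAM111B without irradiated WT replicate 2. Under the other alternatives it was -0.86 to -0.74 for FAM111A and -0.34 to -0.14 for FAM111B. The untreated difference was -0.42 to 0.73 for FAM111A, negative without untreated ATM knockdown replicate 1 or untreated WT replicate 2, and 0.37 with limma and 0.80 without cells above 2 times the median. For FAM111B it was -0.25 to 0.18, positive without those same libraries, and also 0.019 with no scaling, 0.46 with limma and 0.35 without cells above 2 times the median. The genotype difference in response was -1.54 to -0.39 for FAM111A and -0.41 to 0.14 for FAM111B, positive without untreated ATM knockdown replicate 2, irradiated WT replicate 2 or untreated WT replicate 1. It was -1.15 with limma and -1.65 without large cells for FAM111A, and -0.61 with limma and -0.68 without large cells for FAM111B. FAM111B could not be fitted at an average log2 CPM of at least 5, which leaves it out. The cause was not tested in any of these. The share of positive cells differed by -12.2 to -3.08 points for FAM111A, and -8.13 to -3.62 with a library left out, and by 0.667 to 11.6 points for FAM111B, and 6.05 to 11.8. With all libraries the permutation test of these shares has a smallest possible p of 0.0556. It could therefore not pass the threshold, and no conclusion is drawn from it. Mean rho with the replication score was 0.50 to 0.56 for FAM111A and 0.52 to 0.60 for FAM111B, and with a library left out 0.50 to 0.58 for FAM111A and 0.52 to 0.58 for FAM111B.

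Counts of called genes moved more. For irradiation in WT (205) they were 534 with no filter, 322 with the higher one, 569 with DESeq2, 33 for the groups alone, 130 without large cells and 89 to 376 with a library left out. In knockdown (28) they were 236 with no filter, 178 with DESeq2, 122 with limma, 65 for the groups alone, 68 without large cells and 44 to 142. For knockdown minus WT when irradiated (635) they were 1044 with no filter, 1088 with DESeq2 and 308 to 980, and when untreated (1238) 718 for the groups alone and 965 to 1390. For the difference in response (23) they were 195 with no filter, 45 with the higher one, 135 with DESeq2 and 31 to 128.

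Alternatives added after the data were seen gave 30 replication genes called higher in irradiated WT with no filter, 28 with DESeq2, 1 for the groups alone and 1 to 23 with a library left out. Of all genes tested, 276 of 15028 were called higher in irradiated WT with no filter, 316 of 11973 with DESeq2 and 5 of 11852 for the groups alone. Among the 100 genes most alike to FAM111B, G2/M genes numbered 2 at 30000 counts, 2 without large cells and 1 to 4 with a library left out, and replication genes 37 to 43. For FAM111A with a library left out, G2/M genes numbered 20 to 23 and replication genes 19 to 22. No paired analysis was possible because the labels carry no replicate numbers, and the numbers used here follow accession order.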
